A study of Mus musculus with 3 samples.

Results

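The nuclear receptor superfamily was examined in endothelial cells sorted from the cortex of the adult mouse kidney. The superfamily was taken as 46 genes. Of these, 44 had a probeset assigned to a single gene on the array, out of 19938 genes with such a probeset, and each of the 44 had 1. Nr1h2 and Nr2e3 had none in the probe table, so their signal was not analysed here. The members were split into 12 groups by ligand and family.

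Nuclear receptors are transcription factors that bind DNA directly and, in many cases, are switched by a small lipid-soluble ligand such as a steroid, thyroid hormone, a retinoid, vitamin D, a fatty acid, an oxysterol or a bile acid. Steroid receptors wait in complexes with heat shock proteins until ligand arrives, whereas thyroid hormone, retinoic acid and vitamin D receptors sit on DNA as partners of a retinoid X receptor and exchange corepressors for coactivators. In the kidney, steroid receptors are best known for salt handling in the distal nephron, the vitamin D receptor for calcium transport, HNF4A for the proximal tubule, and in endothelium PPARG, the glucocorticoid receptor and COUP-TFII for fatty acid handling, inflammation and venous identity.

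The study profiled endothelial cells of several kidney compartments, and the 3 samples described here, called replicates 1, 2 and 3, are its cortical cells from adult Tie2-GFP mice of a mixed and mainly CD-1 background, of unknown sex. The Tek (Tie2) promoter drives GFP in these mice. Cells were thus sorted on use, or recent use, of that promoter and not on a panel of endothelial proteins. The paper found a proximal tubule signature in its cortical cells and read it as minor contamination. Each sample came from 1 kidney and was not pooled. Cortex freed of medulla was dissociated in 1% collagenase for 5 min and sieved through 100 µm and 40 µm meshes, the finer of which held back glomeruli. After 5 min in trypsin and a 70 µm mesh, GFP-positive cells were sorted and their RNA was amplified in 1 round. The samples form 1 group, without an untreated or other control, so levels were described and no groups were compared.

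All 12 genes of an endothelial marker list were above a signal of 100 in these samples by the test given below, among them Pecam1, Cdh5 and Tek itself. Tubule genes were also high: 11 of 12 proximal tubule markers and 4 of 6 markers of the thick ascending limb were above, as were 3 of 5 measured markers of the distal convoluted and connecting tubule. The summed signal of the 12 proximal tubule markers was 17266, 14568 and 15407 in replicates 1, 2 and 3. That of the 12 endothelial markers was lower, at 12978, 13188 and 11017. Sums over different genes do not give the share of cells, so the size of the contamination was not measured. Collecting duct markers were below in 5 of 8 cases (2 to 3 with a replicate left out) and neither above nor below in 3, and the 4 measured podocyte markers and 7 measured leukocyte markers were all below, as were 5 of 6 fibroblast markers. Of 8 smooth muscle and pericyte markers, 2 were above, 1 of them without replicate 1 or without replicate 2 and 3 without replicate 3. Their summed signal was 1671, 1678 and 3552 in replicates 1, 2 and 3, and all 8 were highest in replicate 3. A level in sorted bulk RNA therefore cannot be assigned to a cell type from these data, and fewer cells of a type cannot be told apart from less RNA per cell. Arrays carry no read depth, so precision rests on there being 3 of them.

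Signals are log2 values throughout, and a signal of 100, the raw level that the study used as its filter on low probesets, is 6.64 on that scale. Each probeset was tested one-sided with limma for a mean above and for a mean below 100, with Benjamini-Hochberg adjustment over all 35557 probesets. "Above" and "below" stand for an adjusted p under 0.05, "neither" for the rest. Of the 44 members, 7 were above, against 21.2% of all genes. A further 29 were below, against 63.1% of genes, and 8 were neither, against 15.7% of genes. The shares of the members were 15.9% above and 65.9% below, near those of all genes, and the median log2 signal was 5.98 over the members and 5.88 over all genes. The shares of all genes, 21.2% above and 63.1% below, also stand beside the count of each list named here with all 3 samples. The 7 above were the glucocorticoid receptor gene Nr3c1, Thra, Nr1h4, Hnf4a, Nr1d1, Nr2f2 and Nr2c2. With replicate 1, 2 or 3 left out, 1, 1 and 4 members were above, against 12%, 12.7% and 15.3% of genes, and Nr3c1 was among them each time. With a limit of 50, 23 members were above, against 48.4% of genes, and 11 below, against 36.8%. With a limit of 200, 1 member was above, against 8.86% of genes. With equal values taken at face value 4 were above, against 22.9% of genes, and 11 reached 100 in every sample, against 28% of genes. The same value in all 3 samples, to 5 decimals, occurred in 22 of the 44 members, a share of 50%, and in 51.2% of genes. Such members have no spread of their own, so they were given the spread of other probesets of like signal. Where a value is given as the same in each sample, it is one of these. For such a gene, leaving out a replicate keeps the mean, and a call lost then comes from the test with fewer samples.

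**Figure D1:**
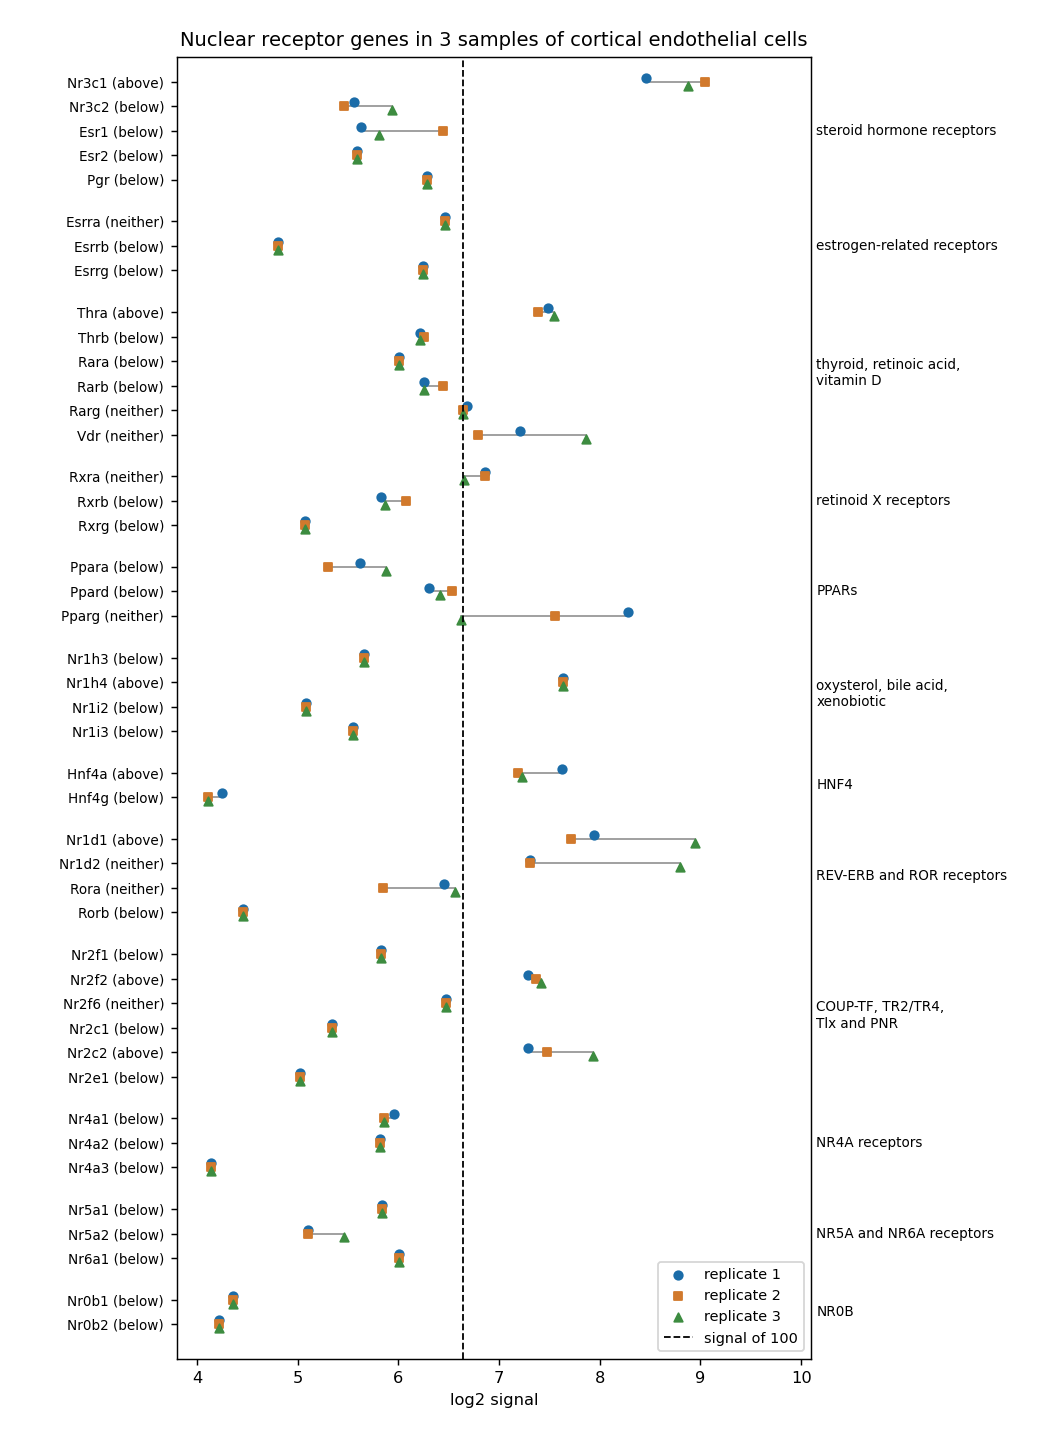
The log2 signal (horizontal axis) of each of the 44 nuclear receptor genes in replicates 1, 2 and 3, grouped by family, with each gene's result against a signal of 100 (dashed line) in brackets. The grey line joins the lowest and the highest sample, and most genes lie left of the dashed line, with 7 above it and 29 below it by the test.

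Among the steroid hormone receptors, Nr3c1 was above 100 and the other 4 genes were below. Nr3c1, which encodes the receptor for glucocorticoids, had 8.46, 9.04 and 8.88 in replicates 1, 2 and 3. All 3 samples lay well over the limit, by 2.15 on average, and the mean was 8.79 ± 0.30 (SD, n = 3, limma adjusted p = 0.00389). With replicate 1, 2 or 3 left out, the adjusted p was 0.0132, 0.0222 and 0.0230.

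Nr3c2, the gene of the mineralocorticoid receptor of the distal nephron, had 5.56, 5.46 and 5.94, with a mean of 5.66 ± 0.25 (SD, n = 3, limma adjusted p = 0.00426). Esr1, the gene of estrogen receptor alpha, had 5.63, 6.44 and 5.80, so that replicate 2 stood 0.81 over replicate 1. Its mean of 5.96 ± 0.43 was below (SD, n = 3, limma adjusted p = 0.038), but not without replicate 1 or without replicate 3. Esr2, of estrogen receptor beta, had 5.59 and Pgr, of the progesterone receptor, had 6.29 in each sample. Pgr was not below when any replicate was left out.

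The genes that serve these receptors were on both sides of the limit. Of 7 measured chaperone and cochaperone genes of steroid receptors, 6 were above. Hsp90aa1, the inducible HSP90 that holds the receptor in its ligand-binding form, had 11.63, 11.54 and 10.82. Ptges3, the cochaperone p23, had 10.95, 11.32 and 11.07. Other probesets had lower means, 11.20 and 10.61 for Hsp90aa1 and 10.45 and 10.07 for Ptges3. Those of Ptges3 were highest in replicate 3. The 1 below was Fkbp5, an immunophilin of the complex and itself a gene that glucocorticoids induce, at 6.31, 5.73 and 5.97 (6.004 ± 0.29, SD, n = 3, limma adjusted p = 0.0182). This call ended without replicate 2 and without replicate 3.

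Of 10 genes known as targets of the glucocorticoid or mineralocorticoid receptor, 1 was above, 6 were below and 3 were neither. The shares were 10% above and 60% below, against 21.2% and 63.1% of all genes. Without replicate 2, 2 were below, and without replicate 3, 2 were above. Dusp1, a phosphatase of MAP kinases, was above, at 9.01, 8.61 and 8.32 (8.65 ± 0.35, SD, n = 3, limma adjusted p = 0.00609). It is also a gene of the early response to cell dissociation. Tsc22d3, or GILZ, which carries much of the anti-inflammatory action of glucocorticoids, had 6.39 in each sample, and the clock gene Per1 had 6.10, both below. The call of Tsc22d3 ended when any replicate was left out, and that of Per1 without replicate 1 or without replicate 2. Sgk1, the kinase that stabilises the epithelial sodium channel, had 8.19, 8.12 and 7.10, lowest in replicate 3. The mean, 7.80 ± 0.61, was neither (SD, n = 3, limma adjusted p = 0.0729).

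An enzyme that controls the access of steroid to these receptors differed between samples. Hsd11b2, which inactivates glucocorticoids and so keeps them off the mineralocorticoid receptor, had 6.81, 6.27 and 8.05 and was neither (7.05 ± 0.91, SD, n = 3). Scnn1a, the alpha subunit of the epithelial sodium channel, had 6.48, 6.20 and 7.31. In both genes, and in Nr3c2, replicate 3 was highest and replicate 2 lowest. Among the 8 collecting duct markers, Atp6v1g3, a proton pump subunit of intercalated cells, had 8.97, 7.62 and 10.13, also in this order. The summed signal of the other 7 differed less, with 547, 498 and 609 in replicates 1, 2 and 3. The order was not limited to collecting duct markers. Kcnj1 of the thick ascending limb list had it, at 8.88, 7.05 and 9.22. So did Slc5a2 of the proximal tubule list and Acta2 of the smooth muscle list, with ranges of 1.58 and 1.53. Other markers differed, and 3 of 6 thick ascending limb and 5 of 12 proximal tubule markers were highest in replicate 1. The part of any of these cell types in the values of Hsd11b2, Scnn1a and Nr3c2 was not tested.

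Of the 3 estrogen-related receptors, orphan receptors that control mitochondrial genes together with PGC-1, Esrrb and Esrrg were below. Esrrb had 4.80 and Esrrg 6.25 in each sample. Esrra had 6.46 in each and was neither (limma adjusted p = 0.0695 for a lower mean). With its 3 equal values taken at face value, as an SD of 0, the adjusted p was 5.34e-07. Esrrg was not below when any replicate was left out. Ppargc1a, the coactivator PGC-1 alpha, was above, at 8.40, 8.28 and 8.40 (8.36 ± 0.07, SD, n = 3, limma adjusted p = 0.000948). Another probeset of the gene had 6.60, 4.84 and 7.97, so the probesets disagreed, and the gene was neither by the mean over them. Ppargc1b was below at 5.90 ± 0.07.

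Thra, which encodes thyroid hormone receptor alpha, was above 100 in the 3 samples. It had 7.49, 7.38 and 7.54, with a mean of 7.47 ± 0.08 (SD, n = 3, limma adjusted p = 0.00442). The values lay within 0.16 of each other, although the gene was not above without replicate 1 or without replicate 2. Thrb, of thyroid hormone receptor beta, had 6.22, 6.26 and 6.22 and was below, but not when any replicate was left out. The deiodinases that make and clear the active hormone were below, Dio1 at 5.07 ± 0.03 and Dio2 at 4.40 in each sample.

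The retinoic acid receptor genes were below or level with the limit. Rara had 6.005 in each sample and Rarb had 6.26, 6.44 and 6.26 (6.32 ± 0.11, SD, n = 3, limma adjusted p = 0.0141), both below. The call of Rarb ended when any replicate was left out. Rarg had 6.68, 6.64 and 6.64, level with the limit, and was neither. Of 6 measured retinoic acid receptor targets, Dhrs3 and Tgm2 were above and the other 4, Rarb itself included, were below (2 without replicate 3). The shares were 33.3% above and 66.7% below, against 21.2% and 63.1% of all genes. Dhrs3, which turns retinaldehyde back into retinol, had 9.42, 9.21 and 9.42. Tgm2, a transglutaminase, had 8.01 in each sample.

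Of 15 measured enzymes that make or clear ligands of nuclear receptors, 12 were below, a share of 80% against 63.1% of all genes. They included every measured retinaldehyde dehydrogenase, Aldh1a1 at 5.26 ± 0.12, Aldh1a2 at 4.74 and Aldh1a3 at 5.72. Rdh10, the dehydrogenase of the first step to retinoic acid, stood apart with 9.56 in replicate 1 and 6.80 in replicates 2 and 3, and was neither (7.72 ± 1.60, SD, n = 3, limma adjusted p = 0.498). Replicate 1 alone was far over the limit. Cyp27b1, which makes active vitamin D in the proximal tubule, was below at 4.86 ± 0.14. Hsd11b1, which regenerates active glucocorticoids, was below at 5.49 ± 0.38.

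Vdr, the gene of the vitamin D receptor, varied by 1.07 between samples. It had 7.20, 6.79 and 7.86, all over the limit, with a mean of 7.28 ± 0.54 that was neither (SD, n = 3, limma adjusted p = 0.2). Of 5 measured targets, Calb1 and S100g, calcium-binding proteins of calcium-transporting epithelia, were above. Calb1 had 9.19, 9.04 and 9.85, in the same order of samples as Vdr, and S100g had 11.05, 10.59 and 10.81. The calcium channel genes Trpv5 and Trpv6 were below, at 5.90 ± 0.01 and 5.24 ± 0.02. Calb1 is also a marker of the distal convoluted and connecting tubule, and the other 4 measured markers had a summed signal of 713, 535 and 717 in replicates 1, 2 and 3. The part of such cells in the values of Vdr was not tested.

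The retinoid X receptors are the common partners of the receptors above and of the PPARs, LXR and FXR. Rxra had 6.86, 6.86 and 6.66, just over the limit in each sample, and its mean of 6.79 ± 0.12 was neither (SD, n = 3, limma adjusted p = 0.269). Rxrb had 5.83, 6.08 and 5.86 and Rxrg had 5.07 in each, both below. Each sample of Rxra thus reached 100, but the mean did not pass the test.

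Of the peroxisome proliferator-activated receptors, which sense fatty acids, Ppara and Ppard were below and Pparg was neither. Pparg, the receptor of the thiazolidinediones, had the widest range of any member, 1.66. It had 8.28, 7.56 and 6.62 in replicates 1, 2 and 3, the last at the limit itself. The mean was 7.49 ± 0.83 (SD, n = 3, limma adjusted p = 0.263), and with replicate 1, 2 or 3 left out the adjusted p was 0.591, 0.532 and 0.0732. Ppara, the activator of fatty acid oxidation, had 5.62, 5.30 and 5.88 (5.60 ± 0.29, SD, n = 3, limma adjusted p = 0.00509). Ppard, the widely used member of the family, had 6.30, 6.53 and 6.42 (6.42 ± 0.12, SD, n = 3, limma adjusted p = 0.0385), and this call ended when any replicate was left out.

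Endothelial markers gave the following values beside Pparg. Relative to the mean of each gene, the list's median stood at 0.06, 0.00 and -0.03 in replicates 1, 2 and 3, and their summed signal was 12978, 13188 and 11017. Of the 12 markers 6 were lowest in replicate 3, such as Kdr, the VEGF receptor, at 9.72, 9.70 and 8.79. Others took another order, with Tie1 highest in replicate 3 at 8.20, 8.06 and 8.24, Ehd4 lowest in replicate 2 at 9.67, 9.39 and 9.67, and Flt1 at 10.47 in each sample. Some tubule markers fell from replicate 1 to 3 as Pparg did. Of the 6 thick ascending limb markers, Cldn10 had 8.73, 8.19 and 7.45 and Cldn16 had 8.15, 6.03 and 5.32, but 4 were lowest in replicate 2. Of the 12 proximal tubule markers 2 were lowest in replicate 3, among them Slc7a13 with a range of 1.74, and 7 in replicate 2. The part of the cell mixture in the range of Pparg was not tested.

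Of 10 measured PPAR targets, 5 were above, 3 were below and 2 were neither. The shares were 50% above and 30% below, against 21.2% and 63.1% of all genes. Fabp4, the fatty acid carrier of capillary endothelium and adipocytes, had 11.65, 11.66 and 11.38 (11.56 ± 0.16, SD, n = 3, limma adjusted p = 0.000285). Cpt1a, the carnitine transferase that admits fatty acids to mitochondria, had 7.62 in each sample, and Acadm, an acyl-CoA dehydrogenase, had 9.18. The call of Cpt1a ended when any replicate was left out. Ehhadh, a peroxisomal oxidation enzyme, had 8.58, 8.30 and 5.80, so that replicate 3 alone was under the limit. Among the 10 targets, 4 had the same value in each sample, 2 were lowest in replicate 3, and Plin2, Acadl and Pdk4 were highest there. Pdk4, which restrains glucose oxidation, and Angptl4, which inhibits lipoprotein lipase, were below, at 4.81 ± 0.21 and at 5.74 in each sample.

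The promoters of the 3 members with the widest range, Pparg, Nr1d2 and Nr1d1, are shown because these genes differed most between samples and because REV-ERB, ROR and RXR dimers read the letters AGGTCA, the core of the nuclear receptor element. Each line gives the 120 bases before an annotated start, from RefSeq on build GRCm38.p6, 5′ to 3′ on the gene's strand, with AGGTCA in capitals. The starts of Pparg are given in order along chromosome 6, the plus strand, and Nr1d2 and Nr1d1 lie on the minus strand.
Pparg, chr6:115361024-115361143: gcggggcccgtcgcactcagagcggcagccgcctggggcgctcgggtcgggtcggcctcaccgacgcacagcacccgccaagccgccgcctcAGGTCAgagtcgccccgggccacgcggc
Pparg, chr6:115362229-115362348: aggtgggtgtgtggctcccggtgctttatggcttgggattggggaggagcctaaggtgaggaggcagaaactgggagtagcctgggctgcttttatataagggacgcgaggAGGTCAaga
Pparg, chr6:115421946-115422065: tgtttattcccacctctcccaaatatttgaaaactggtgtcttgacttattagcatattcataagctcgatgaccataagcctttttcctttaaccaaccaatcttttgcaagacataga
Nr1d2, chr14:18239107-18239226: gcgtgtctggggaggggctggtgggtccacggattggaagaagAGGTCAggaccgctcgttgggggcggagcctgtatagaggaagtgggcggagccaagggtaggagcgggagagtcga
Nr1d1, chr11:98775378-98775497: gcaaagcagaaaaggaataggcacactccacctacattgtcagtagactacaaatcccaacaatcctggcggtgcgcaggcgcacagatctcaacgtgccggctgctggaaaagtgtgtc

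AGGTCA began 28 bases before the first of these Pparg starts and 9 bases before the next, and 77 bases before the start of Nr1d2. The farthest Pparg promoter and that of Nr1d1 did not hold these letters on the strand shown or its complement. Of the 46 genes of the superfamily, 42 had a promoter in the RefSeq table, Nr1h2 and Nr2e3 included. Of these 42 members, 6 held AGGTCA on either strand within the 120 bases before any of their starts. The share was 14.3%, against 7.90% of 27025 genes. The 6 were Rxra, Rxrg, Pparg, Nr1d2, Nr5a2 and Nr6a1. GGGCGG, the GC box, was present in 20 of 42 members, or 47.6%, and in 29.1% of genes. CCAAT was present in 28.6% of members and 24.2% of genes, and CACGTG, the E-box, in 4.76% of members and 4.2% of genes. A match is a description of the letters, and no binding was measured.

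Of the 4 measured receptors for oxysterols, bile acids and xenobiotics, Nr1h4 was above and 3 were below. Nr1h4 encodes FXR, the bile acid receptor, and had 7.64 in each sample (limma adjusted p = 0.00592), a value that was not above without replicate 1 or without replicate 2. Nr1h3, of the oxysterol receptor LXR alpha, had 5.65 in each sample. The xenobiotic receptors PXR and CAR, which induce drug-metabolising enzymes in liver, were at 5.08 for Nr1i2 and 5.55 for Nr1i3. All 4 genes thus held the same value in every sample.

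Targets of LXR were above in 4 of 7 cases, a share of 57.1% against 21.2% of all genes, and in 1 of 7 when any replicate was left out. Abca1, the cholesterol exporter, had 7.10 in each sample (limma adjusted p = 0.0322), Mylip, which degrades the LDL receptor, had 7.61, and the desaturases Scd1 and Scd2 had 6.99 ± 0.03 and 7.93 ± 0.24. Abcg1, which passes cholesterol on to HDL, was below at 6.11 in each sample, but not without replicate 1 or without replicate 2. Of the 4 measured FXR targets 3 were below, Slc51b, Abcb11 and Fgf15, and 1 without replicate 1 or without replicate 2. Slc51a, which with Slc51b forms a bile acid exporter, had 6.80, 6.63 and 6.48, on either side of the limit, and was neither.

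Hnf4a, which encodes the orphan receptor that drives the differentiation of hepatocytes and proximal tubule cells, was above and its paralog Hnf4g was below. Hnf4a had 7.62, 7.19 and 7.23, with a mean of 7.35 ± 0.24 (SD, n = 3, limma adjusted p = 0.0314). It was not above when any replicate was left out, and the adjusted p was 0.0567 with equal values of other probesets taken at face value. Hnf4g had 4.24, 4.11 and 4.11 (4.16 ± 0.08, SD, n = 3, limma adjusted p = 0.000123). Of 5 measured targets of HNF4A, the kidney genes Cdh16 and Ttc36 were above, at 7.87 ± 0.24 and 8.41 ± 0.33 (1 of them without replicate 1), and the liver genes Apob, Ttr and Apoh were below, at 5.76 ± 0.03, 5.01 and 4.96. The median deviation of the 12 proximal tubule markers from each gene's mean was 0.09, -0.11 and 0.06 in replicates 1, 2 and 3. Their part in the signal of Hnf4a was not tested.

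The REV-ERB receptors, transcriptional repressors of the circadian clock, had the largest difference between samples after Pparg, and both were highest in replicate 3. Nr1d1, of REV-ERB alpha, had 7.95, 7.71 and 8.95 and was above, with a mean of 8.20 ± 0.66 (SD, n = 3, limma adjusted p = 0.044). The adjusted p was 0.0847 with equal values taken at face value, and the gene was not above without replicate 1 or without replicate 2. Nr1d2, of REV-ERB beta, had 7.31 in replicates 1 and 2 and 8.80 in replicate 3 (7.80 ± 0.86, SD, n = 3, limma adjusted p = 0.152) and was neither. The ranges were 1.24 and 1.49. Nr1d1 and Thra overlap in the reference annotation, and where their probes lie relative to the overlap was not examined.

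The RORs compete with REV-ERB for the same DNA element and activate where REV-ERB represses. Rora had 6.45, 5.85 and 6.56 and was neither (6.29 ± 0.38, SD, n = 3, limma adjusted p = 0.117 for a lower mean). Rorb was below at 4.45 in each sample. In Nr1d1, Nr1d2 and Rora replicate 3 was highest, and the summed signal of the 4 genes was 514, 447 and 1054 in replicates 1, 2 and 3.

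Clock genes that carry REV-ERB and ROR elements, or that sit downstream of them, were listed with them, and 8 of 9 were measured. Of these 1 was above, 4 were below and 3 were neither. Arntl, which encodes BMAL1 and is repressed by REV-ERB, had 7.36, 7.40 and 5.94, lowest in the sample where Nr1d2 was highest. Nfil3, another gene repressed by REV-ERB, had 6.77, 6.41 and 6.09. Dbp, an output gene driven by BMAL1 and CLOCK, had 6.56, 6.56 and 7.55. Replicate 3 was thus the lowest in Arntl and Nfil3 and the highest in Dbp, and the range was 1.46 in Arntl and 0.99 in Dbp. Clock itself was above and differed less, at 8.38, 8.38 and 8.62, while Per2 had 5.83, 5.83 and 6.04 and Tef had 6.09, 6.09 and 6.43. Tef was not below without replicate 1 or without replicate 2. Cry1, at 5.74 in each sample, and Bhlhe41, at 4.47 ± 0.02, hardly varied.

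A further 5 clock genes were looked up after these values had been seen. Hlf, at 7.06, 7.06 and 7.14, was above, and Per3, Ciart, Cry2 and Bhlhe40 were below. Hlf was not above when any replicate was left out, and Bhlhe40 was not below without replicate 1. Per3 and Cry2 were the same in each sample, and Ciart had 4.25, 4.56 and 4.25, with no rise in replicate 3. The sources used here do not give the time of day at which the kidneys were taken. The smooth muscle and pericyte markers were also highest in replicate 3, by a median deviation of 0.55, and their part in the clock genes was not tested.

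**Figure D2:**
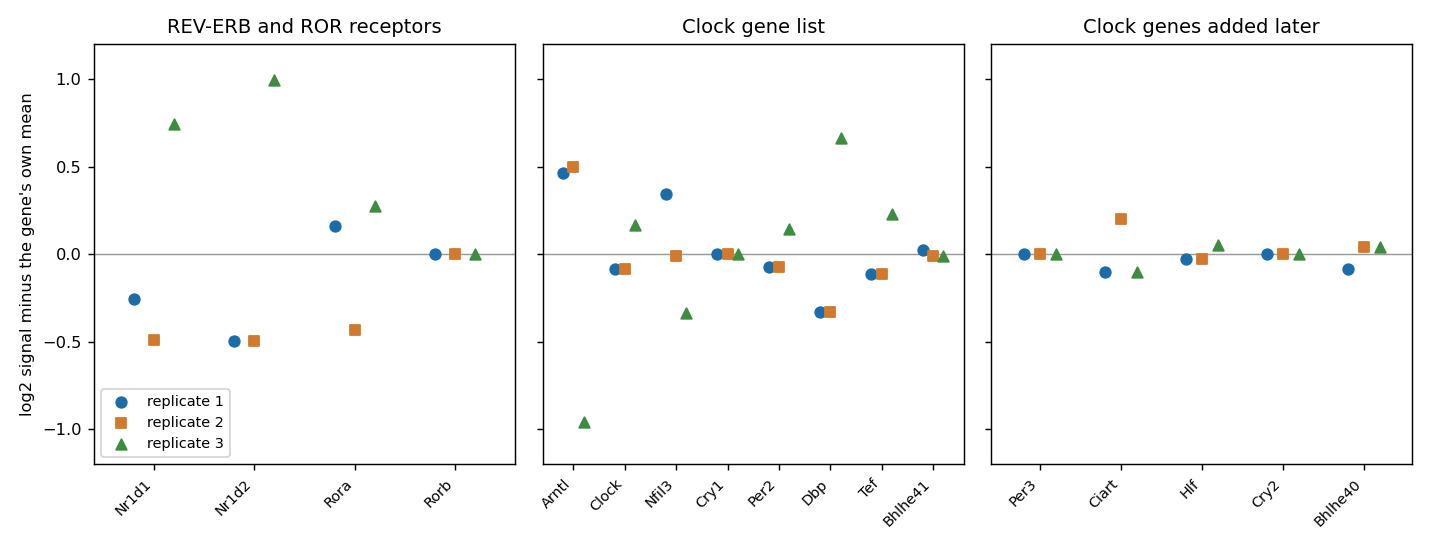
The deviation of each log2 signal from the gene's own mean (vertical axis, log2 units) in replicates 1, 2 and 3, for the 4 REV-ERB and ROR genes, the 8 measured clock genes of the list and the 5 clock genes added later. Replicate 3 is at the top for Nr1d1, Nr1d2, Rora and Dbp and at the bottom for Arntl and Nfil3, and the added genes stay within 0.3 of their means.

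Of the 6 measured orphan receptors of the COUP-TF, TR2/TR4 and Tlx families, Nr2f2 and Nr2c2 were above, 3 were below and Nr2f6 was neither. Nr2f2, which encodes COUP-TFII, the determinant of venous identity in endothelium, had 7.29, 7.37 and 7.41, within 0.13 of each other (7.36 ± 0.06, SD, n = 3, limma adjusted p = 0.00501). It was not above when any replicate was left out. Its paralog Nr2f1, of COUP-TFI, had 5.82 in each sample and was below. Nr2c2, of TR4, had 7.29, 7.47 and 7.94 (7.56 ± 0.33, SD, n = 3, limma adjusted p = 0.0334), highest in replicate 3, and was not above when any replicate was left out. Nr2c1, of TR2, had 5.34 and Nr2e1, of the neural receptor Tlx, had 5.02 in each sample. Nr2f6 had 6.48 in each (limma adjusted p = 0.0844 for a lower mean, and 6.83e-07 with its equal values taken at face value).

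The NR4A receptors, immediate early genes that need no known ligand and that respond within minutes to growth factors and stress, were all below. Nr4a1, of NUR77, had 5.95, 5.86 and 5.86 (5.89 ± 0.05, SD, n = 3, limma adjusted p = 0.000668), Nr4a2 had 5.82 and Nr4a3 had 4.13 in each sample. Of 12 genes of the early response to dissociation, 8 were below (5 without replicate 1 or without replicate 2), Fos and Egr1 among them at 5.89 and 6.13 ± 0.03. The 3 above were Jun at 8.67 ± 0.01, Dusp1 and Btg2 at 7.51 ± 0.32. Btg2 was not above without replicate 1 or without replicate 2, nor Egr1 below without replicate 1. The 8 below made up 66.7% of that list, near the 63.1% of all genes.

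The remaining members were below too. Nr5a1, of steroidogenic factor 1 of the adrenal and gonads, had 5.84 in each sample, and Nr5a2, of LRH-1 of liver and pancreas, had 5.11, 5.11 and 5.46 (5.23 ± 0.20, SD, n = 3). Nr6a1, of the germ cell nuclear factor, had 6.01 in each. Nr0b1 and Nr0b2, which encode DAX1 and SHP, receptors without a DNA-binding domain that repress other members, had 4.36 and 4.22 in each sample.

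The coregulators that nuclear receptors recruit were mostly above 100. Of 16 coactivators 10 were above, a share of 62.5%, and 8 when any replicate was left out. Of the p160 coactivators, Ncoa1 had 7.06, 7.05 and 6.89, Ncoa2 had 7.35 in each sample and Ncoa3 had 8.72, 8.54 and 8.02, and Med1, the mediator subunit that binds liganded receptors, had 7.73 ± 0.04. The histone acetyltransferases Crebbp and Ep300 had 8.84 and 8.39 in each sample. Ncoa6, Carm1, Med24 and Ppargc1b were below, and Prmt1 and Kat2b were neither. The calls of Ncoa1, Ncoa2 and Ncoa6 ended when any replicate was left out. Of 8 measured corepressors 6 were above, a share of 75%, with Hdac3, a histone deacetylase, at 6.55 ± 0.08 and Hdac7 at 6.85 in each sample neither. With any replicate left out, at most 2 of the 8 were above, in a test with fewer samples. Nrip1, of RIP140, had 7.25 in each sample (limma adjusted p = 0.0172), and Tbl1xr1, a subunit that exchanges corepressors, had 7.57, 8.76 and 8.05 and another probeset of lower mean, 6.74. No test compared these shares, and they stand beside 21.2% of all genes.

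**Figure D3:**
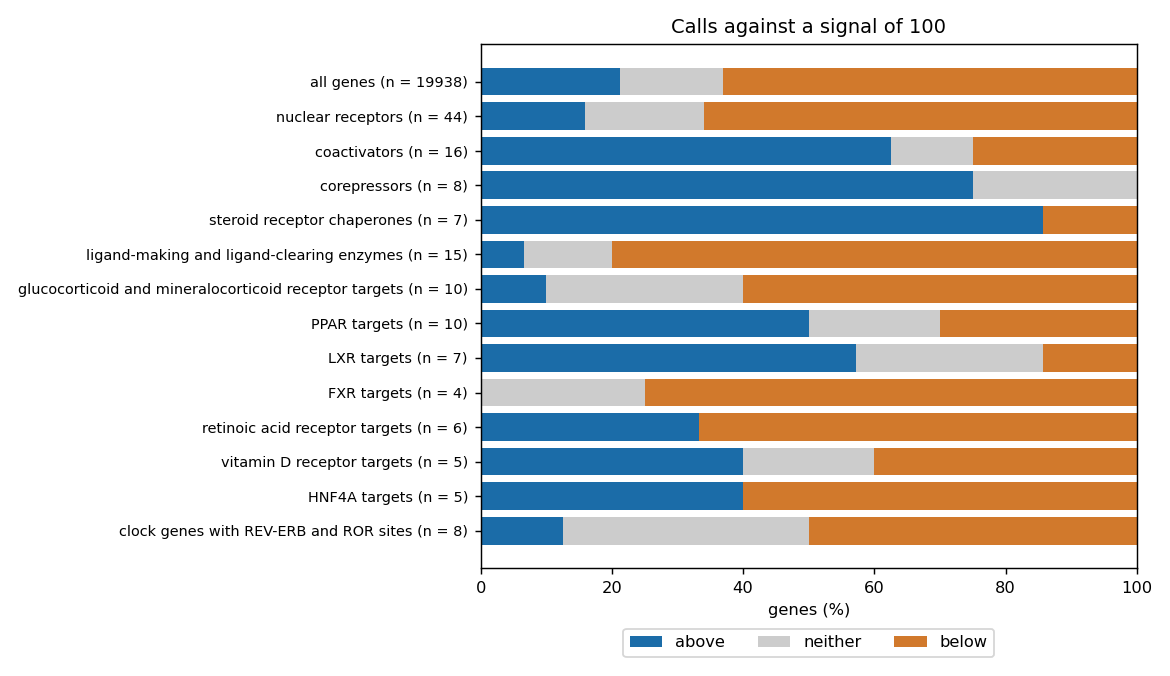
The share of genes (horizontal axis, percent) above, neither above nor below, and below a signal of 100 for all genes, the nuclear receptors and the lists of coregulators, chaperones, enzymes and targets, with the number of measured genes in brackets. The nuclear receptors, at 15.9% above, are near all genes at 21.2%, and coactivators, corepressors and chaperones have more genes above.

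The spread between the samples differed from member to member. A range over 0.5 was found in 9 members, or 20.5%, against 12.8% of genes, and a range over 1 in 4 members, or 9.09%, against 4.33% of genes. The 4 were Pparg, Nr1d2, Nr1d1 and Vdr, and Esr1, Rora, Nr2c2, Nr3c1 and Ppara followed with 0.81, 0.71, 0.65, 0.58 and 0.57. The sample at the top was not the same in each: Pparg was highest in replicate 1, Esr1 and Nr3c1 in replicate 2, and the other 6 in replicate 3. Replicate 3 was highest in 10 members in all, replicate 2 in 6 and replicate 1 in 5. Over all genes the shares highest were 11%, 10.4% and 15.2% in replicates 1, 2 and 3. The order replicate 3, 1, 2 was found in Nr3c2, Thra, Vdr, Ppara, Nr1d1 and Rora, a share of 13.6% of members and 4.01% of genes. No other order was counted. This order was picked from these same data, where it is described above for Nr3c2 and Vdr, so the 2 shares are not a test. Nr1d1 and Thra also overlap in the reference annotation.

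**Figure D4:**
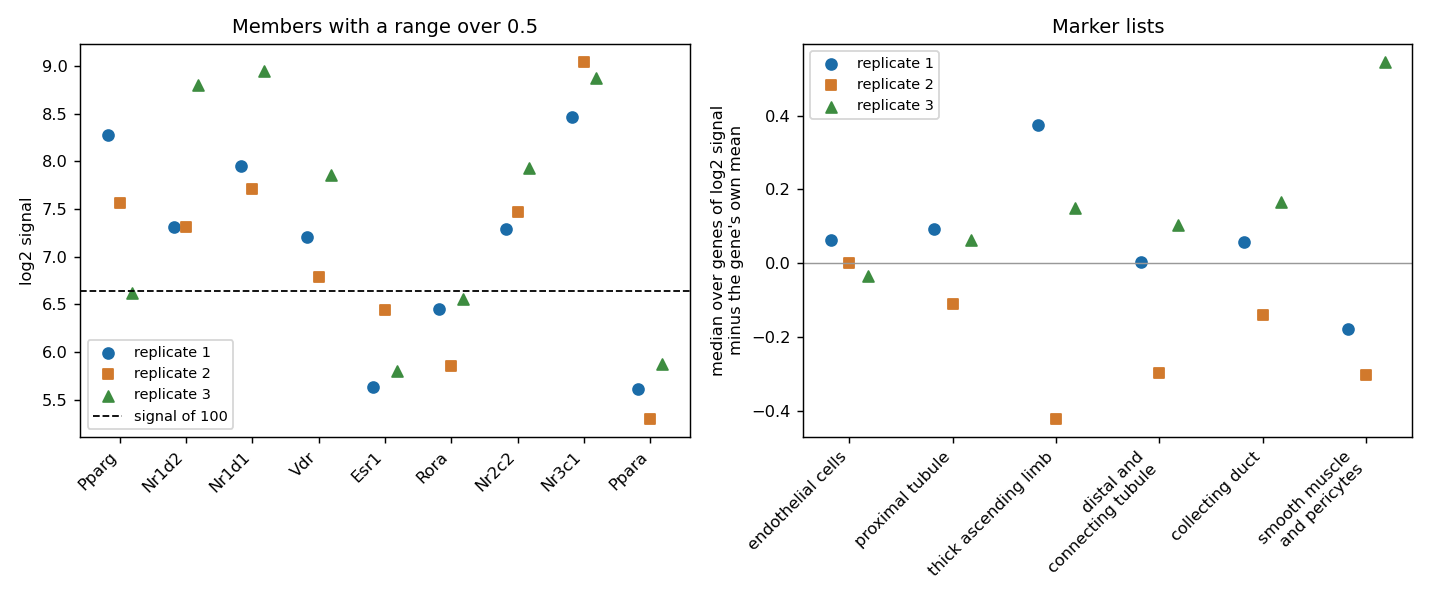
Left, the log2 signal of the 9 members with a range over 0.5 in replicates 1, 2 and 3, with the signal of 100 as a dashed line. Right, the median deviation of the genes of each marker list from their own means (log2 units), where the smooth muscle and pericyte list stands highest in replicate 3 at 0.55 and the thick ascending limb list is lowest in replicate 2 at -0.42.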

How the data were processed

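Gene expression was measured on Affymetrix Mouse Gene 1.0 ST arrays in 3 samples of 1 group. The authors deposited log2 signals per probeset. For its own analysis the paper names RMA in GeneSpring, a method that corrects background, normalizes between arrays and summarises probes. For the deposited values, the submitters' processing notes name Affymetrix Expression Console. Neither its version nor which arrays were normalized jointly is stated there (not given in the sources used here). Of 35557 probesets, the platform annotation assigned 21789 to 1 gene, 1621 to several genes and 12147 to none, and 21766 of the first matched a symbol of the reference. For genes with several, the probeset of highest mean was used. The probe table and the symbols can be old.

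Each probeset was fitted in limma 3.58.1 (R 4.3.3) as the distance of the log2 signal from 6.64, the log2 of 100, with the prior variance following mean signal. In 40.5% of probesets the 3 deposited values were equal in all 5 decimals. These took the trend variance, and the prior was estimated from the others (prior degrees of freedom 0.937, residual 2). Fits were checked on simulated data. There, equal values were made with the trend variance that the fit assumes, and partly equal values were not simulated. The check therefore cannot show whether that assumption holds. Tables and figures were made with Python 3.11.15, numpy 2.4.6, pandas 2.3.3 and matplotlib 3.10.9. The columns had medians of 5.70, 5.70 and 5.66, and 0 values were missing. The replicates are separate kidneys per the labels. Where the 3 values were not all equal, the p-values rest on the spread between these samples together with the trend variance. In some of these genes, such as Hnf4g and Nr4a1, replicates 2 and 3 held the same value. They were fitted like the rest, so their SD may understate the spread between kidneys. Why values are equal is not known. Where they were equal, the p-values rest on the trend variance alone. The number of samples limits the precision.

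The text names every member, up to 6 genes of each list in the order written and all genes where 5 or fewer make up a count. Other genes named on the lists were chosen after their values were seen. The members and lists were chosen with earlier results of these data known. Alternatives were a limit of 50 or 200, 100 or more (or less) in each sample with no test, equal values kept with an SD of 0, no variance trend, quantile normalization, columns shifted to 1 median, only probesets of 1 gene, the mean over a gene's probesets, and each replicate left out. Promoters came from RefSeq, build GRCm38.p6.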

Additional observations from a re-analysis of the deposited data

How the results depend on the processing

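The number of members above 100, 7 as reported, was 23 with a limit of 50, 1 with a limit of 200, 4 with equal values kept (Nr3c1, Thra, Nr1h4 and Nr2f2), and 11 by 100 or more in each sample with no test. Leaving out a replicate gave 1 to 4. The number below, 29 as reported, was 11 with a limit of 50 and 23 to 36 otherwise. No variance trend changed no call, and Esrra and Nr2f6 became below with equal values kept, quantile normalization, shifted columns, probesets of 1 gene only and the mean over a gene's probesets. A limit of 50 lies 1 log2 unit lower, so by construction the mean minus the limit turned positive: 0.0113 for Nr3c2, 0.32 for Esr1, 0.65 for Pgr, 0.82 for Esrra, 0.61 for Esrrg, 0.59 for Thrb, 0.36 for Rara, 0.67 for Rarb, 0.28 for Rxrb, 0.77 for Ppard, 0.0111 for Nr1h3, 0.64 for Rora, 0.18 for Nr2f1, 0.83 for Nr2f6, 0.25 for Nr4a1, 0.18 for Nr4a2, 0.20 for Nr5a1 and 0.36 for Nr6a1. With a limit of 200 it turned negative: -0.17 for Thra, -0.99 for Rarg, -0.36 for Vdr, -0.85 for Rxra, -0.16 for Pparg, -0.0082 for Nr1h4, -0.30 for Hnf4a, -0.29 for Nr2f2 and -0.079 for Nr2c2. The calls of Esr1, Hnf4a, Nr1d1 and Nr2c2 were lost with equal values kept. The clock genes added after their values were seen changed no call of a member. With 3 arrays, calls near the limit can change when a sample is left out. Where the 3 values were equal, only the number of samples changed, not the mean. No paired analysis was possible because the samples form 1 group.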
